A study of Mus musculus with 21 samples.

Results

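MiR-135a and miR-135b are closely related miRNAs, short RNAs that repress mRNAs by pairing through a seed near their 5′ end. MiR-135a-5p is made from a pair of hairpins, *Mir135a-1* and *Mir135a-2*, and miR-135b-5p from *Mir135b*. Each hairpin also carries a 3p arm, usually the less abundant strand. The family is best known from serotonin neurons, where miR-135a targets the serotonin transporter, and from colorectal cancer, where both miRNAs repress *Apc*, an inhibitor of Wnt signalling. Members were chosen by name, as every row of the deposited tables that begins with miR-135a or miR-135b, and 5 of the 1934 miRNA names in the tables belong to the family. The family was proposed from the same counts that are described here. Its levels and fold changes are therefore a description, and nothing is read from whether a member passed a test.

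The study used *Zeb1200* knock-in mice, in which the sites for miR-200a and miR-200b at the *Zeb1* 3′ end are mutated, so that the mRNA of this transcriptional repressor escapes them. The allele is carried in every cell of the animal, and both cohorts were bred from more than 1 line, each from its own embryonic stem cell clone, without a record in the labels of which line gave which library. Small-RNA-seq was performed on whole pituitaries of female C57BL/6J mice in proestrus that were wild type (WT), heterozygous (*Zeb1 200H*), or homozygous (*Zeb1 200M*) for the allele. Virgin females aged 8 to 12 weeks gave 11 libraries (3 WT, 4 *Zeb1 200H*, 4 *Zeb1 200M*), and females labelled 28 to 36 weeks old that had finished a breeding trial gave 10 (4 WT, 3 *Zeb1 200H*, 3 *Zeb1 200M*), each from a different mouse. The cohorts also differ in breeding history, RNA input, instrument, and miRNA dictionary, and these cannot be told apart, so no level was tested between them.

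Virgin libraries held 3816917 to 10806313 counted reads, and breeding trial libraries held 60037 to 191650. Levels are given in CPM, the count of a miRNA scaled to the counted miRNA reads of its library. Among virgin females, WT replicate 1 stood apart. It had the lowest total, 3816917, against at least 8502878 in the other 10 libraries, and 36.9% of the reads belonged to the top 3 miRNAs, against 24.5% to 28.1% in the others. Its factor in TMM normalization, which rescales libraries so that most miRNAs do not shift, was 0.616, compared with 0.943 to 1.12 in the others. Unless stated, fitted comparisons with virgin WT are given with and without this library.

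The miRNA profile matched the labelled tissue. A list of 5 miRNAs of endocrine pituitary cells (miR-7a-5p, miR-7b-5p, miR-375-3p, miR-141-3p, and miR-200c-3p) summed to between 235518 and 421254 CPM in virgin libraries and between 250208 and 352705 CPM in breeding trial libraries. MiR-122-5p, the miRNA of liver, did not exceed 7.93 CPM in virgin libraries. In the breeding trial its highest level was 49.97 CPM, in *Zeb1 200H* replicate 3, from 3 counts.

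In the mouse genome build GRCm38, *Mir135a-1* (ENSMUSG00000065407) lies on the plus strand of chromosome 9, from 106154124 to 106154213. The annotation places it in an intron of the antisense transcript *D030055H07Rik* and, on the opposite strand, over an untranslated exon of *Glyctk*, which encodes glycerate kinase. *Mir135a-2* (ENSMUSG00000065524) lies on the minus strand of chromosome 10, from 92072086 to 92072185, in an intron of *Rmst*, a long noncoding RNA known from neural tissue. *Mir135b* (ENSMUSG00000065435) lies on the plus strand of chromosome 1, from 132198088 to 132198184, in an intron of the protein-coding genes *Lemd1* and *AC124108.1*. The 3 hairpins are thus on different chromosomes, and none of them shares an annotated host transcript with another.

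Mature sequences from RefSeq (GRCm38.p6) matched 4 of the 5 names, and miR-135b-5p was not matched. They are shown because the 5p arm is identical from both *Mir135a* hairpins while the 3p arms tell the hairpins apart. Capitals mark the seed, bases 2 to 8.
miR-135a-5p: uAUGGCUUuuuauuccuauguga
miR-135a-1-3p: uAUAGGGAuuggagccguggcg
miR-135a-2-3p: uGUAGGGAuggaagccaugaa
miR-135b-3p: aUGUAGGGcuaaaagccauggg
Both *Mir135a* 3p arms carry the same base at 15 of 21 positions counted from the 5′ end.

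In virgin WT pituitary, miR-135a-5p reached 2528, 4205, and 4365 CPM in replicates 1, 2, and 4, a mean of 3699 ± 1018 CPM (SD, n = 3). In *Zeb1 200H* pituitary, it reached 5657, 5363, 5114, and 5513 CPM in replicates 1 to 4 (5412 ± 232 CPM, SD, n = 4). In *Zeb1 200M* pituitary, it reached 6054, 5820, 5669, and 6729 CPM (6068 ± 468 CPM, SD, n = 4). In CPM the 3 genotypes did not overlap, with WT lowest and *Zeb1 200M* highest, although *Zeb1 200M* replicate 3 lay only just above *Zeb1 200H* replicate 1. After TMM scaling the mutants overlapped. Of all miRNAs tested, 35.1% did not overlap in CPM between *Zeb1 200M* and WT, 33.2% between *Zeb1 200H* and WT, and 7.85% between the mutants. MiR-135a-5p ranked 45th to 49th by count in WT libraries, 35th to 38th in *Zeb1 200H*, and 32nd to 37th in *Zeb1 200M*, where 836 to 1079 miRNAs had a count.

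MiR-135b-5p was about 20 times less abundant. Virgin WT replicates 1, 2, and 4 had 143, 166, and 183 CPM (164 ± 20.1 CPM, SD, n = 3). *Zeb1 200H* replicates 1 to 4 had 306, 289, 350, and 238 CPM (296 ± 46.4 CPM, SD, n = 4), and *Zeb1 200M* replicates 1 to 4 had 285, 284, 325, and 305 CPM (300 ± 19.4 CPM, SD, n = 4). In CPM every mutant library lay above every WT library, whereas the *Zeb1 200M* values fell inside the *Zeb1 200H* range. After TMM scaling, *Zeb1 200H* replicate 4 (224) fell below WT replicate 1 (232). Of all miRNAs tested, 35.1% did not overlap in CPM between *Zeb1 200M* and WT, and 33.2% between *Zeb1 200H* and WT. The rank of miR-135b-5p ran from 187th to 230th.

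In breeding trial WT pituitary, miR-135a-5p reached 4199, 3713, 2961, and 3376 CPM in replicates 1 to 4 (3562 ± 524 CPM, SD, n = 4), from 249 to 649 counts. *Zeb1 200H* replicates 1, 3, and 4 had 4691, 3081, and 4912 CPM (4228 ± 999 CPM, SD, n = 3), and *Zeb1 200M* replicates 1, 2, and 3 had 5293, 6538, and 6042 CPM (5958 ± 627 CPM, SD, n = 3). The *Zeb1 200M* libraries lay above all others in CPM. Of all miRNAs tested, 42.4% did not overlap between *Zeb1 200M* and WT, and 18.6% between *Zeb1 200M* and *Zeb1 200H*, in either direction. The *Zeb1 200H* libraries were split, with replicate 3, the library with the fewest reads of the cohort, inside the WT range and replicates 1 and 4 above it. MiR-135a-5p ranked 29th to 50th in this cohort, a span close to that of the virgin libraries.

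MiR-135b-5p was counted only 9 to 57 times per breeding trial library. WT replicates 1 to 4 had 175, 149, 238, and 214 CPM (194 ± 39.6 CPM, SD, n = 4), *Zeb1 200H* replicates 1, 3, and 4 had 245, 150, and 327 CPM (241 ± 88.8 CPM, SD, n = 3), and *Zeb1 200M* replicates 1, 2, and 3 had 388, 298, and 464 CPM (383 ± 83.2 CPM, SD, n = 3). *Zeb1 200M* again lay above WT without overlap (as in either direction for 42.4% of all miRNAs tested), and *Zeb1 200H* overlapped both. Counting error was wide here. The 9 counts of *Zeb1 200H* replicate 3 correspond to 68.5 to 285 CPM, and the 57 counts of *Zeb1 200M* replicate 3 to 352 to 601 CPM (exact Poisson 95% intervals, which cover counting error only).

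**Figure D1:**
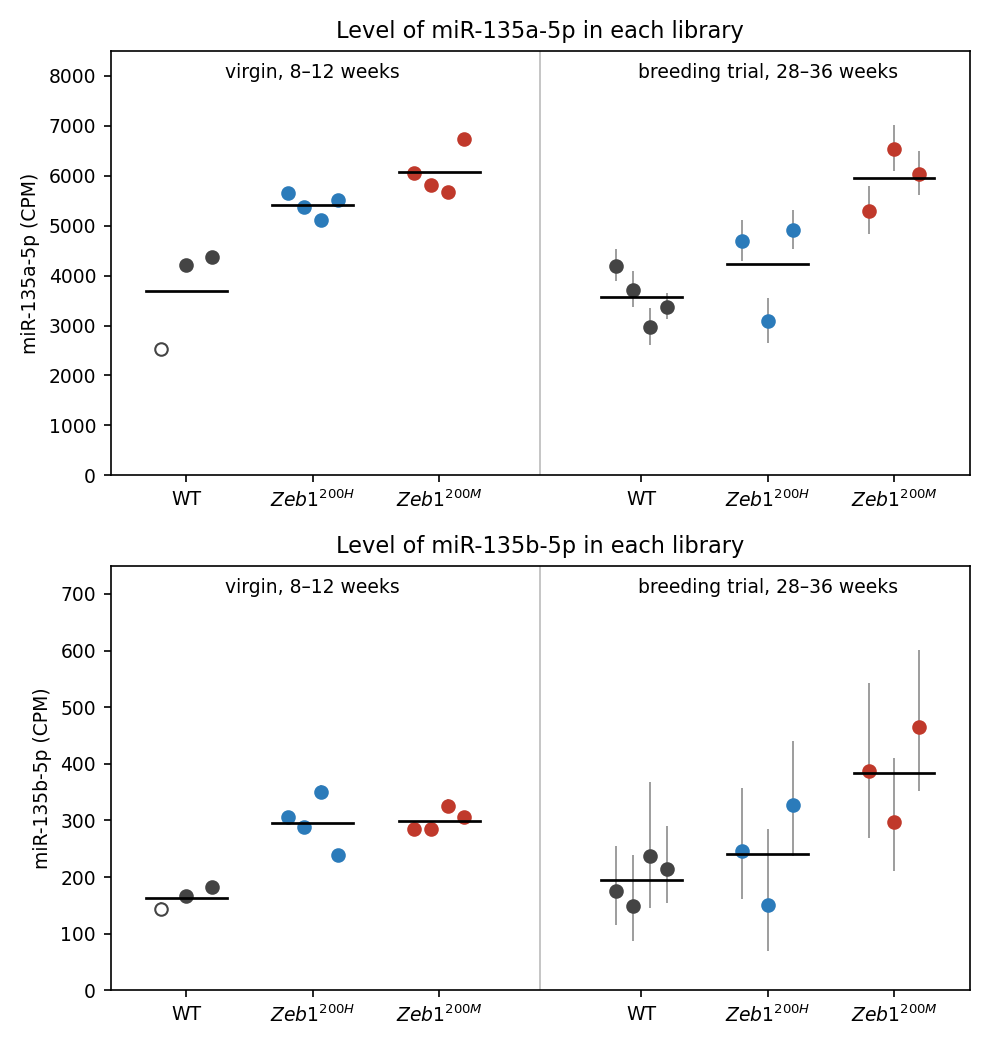
Each point is one library, with miR-135a-5p above and miR-135b-5p below in CPM (linear axes from 0), black lines the group means, and grey lines exact Poisson 95% intervals. The open circle is virgin WT replicate 1, at 2528 and 143 CPM. All *Zeb1 200M* libraries lie above all WT libraries of their cohort for both miRNAs. Of all miRNAs tested, 35.1% (virgin) and 42.4% (breeding trial) also did not overlap in CPM between these genotypes, in either direction.

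For comparison between genotypes, edgeR was fitted to each pair over all miRNAs that passed its filter on low counts, and a miRNA was called at a Benjamini-Hochberg adjusted p below 0.05. Of the 5 members, 3 passed the filter in the virgin cohort (both 5p arms and miR-135a-2-3p) and 2 in the breeding trial cohort (both 5p arms). Fitted fold changes are relative to TMM, under which the median log2 fold change of all miRNAs tested was within 0.02 of 0 in the 6 fits. Scaling to library totals alone shifts that median to 0.34 and 0.29 for virgin *Zeb1 200M* and *Zeb1 200H* against WT and to 0.23 and 0.18 in the breeding trial, so fitted values are smaller than ratios of mean CPM.

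Between virgin *Zeb1 200M* and WT, the log2 fold change was 0.36 for miR-135a-5p (SE 0.13, 95% interval 0.058 to 0.66), a 1.28-fold higher level, and 0.47 for miR-135b-5p (SE 0.15, 0.12 to 0.82), a 1.39-fold higher level. Of the 678 miRNAs tested, 77.9% and 81.7% had lower log2 fold changes than these. edgeR called 0 of the 3 members tested, while 6.49% of all miRNAs tested were called. At an unadjusted p below 0.05 the count was 2 (22.1% of all), and DESeq2 called 1, miR-135b-5p (13.3% of all with an adjusted p by DESeq2). The CPM ranges of all 3 tested members were separate, as they were for 35.1% of all miRNAs. After TMM scaling the 5p arms alone remained separate, against 26.0% of all.

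Between virgin *Zeb1 200H* and WT, the log2 fold change was 0.24 for miR-135a-5p (SE 0.12, 95% interval −0.020 to 0.51) and 0.51 for miR-135b-5p (SE 0.19, 0.078 to 0.93). edgeR called 0 of 3 members tested (5.06% of all 672 miRNAs called), 1 reached an unadjusted p below 0.05 (19.5% of all), and DESeq2 called 0 (8.74%). Both 5p arms were separate in CPM (33.2% of all). With TMM scaling miR-135a-5p remained separate (25.4% of all), but miR-135b-5p did not, because WT replicate 1 moved to 232 TMM-scaled CPM and *Zeb1 200H* replicate 4 to 224.

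The calls changed without WT replicate 1. In the fits that left it out, the log2 fold changes between *Zeb1 200M* and WT were 0.34 for miR-135a-5p (SE 0.093, 95% interval 0.14 to 0.55) and 0.62 for miR-135b-5p (SE 0.096, 0.41 to 0.83), and both were called, as were 23.9% of all 703 miRNAs then tested. Between *Zeb1 200H* and WT they were 0.21 (SE 0.069, 0.057 to 0.36) and 0.64 (SE 0.14, 0.34 to 0.93), and both were again called, beside 21.6% of all 699. The call of miR-135a-5p in *Zeb1 200H* lay just under the threshold. All 4 standard errors were smaller without the library. With the library kept, calls in *Zeb1 200M* also depended on the method, since a fit of all 3 genotypes together called miR-135a-5p.

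The virgin mutants were close to each other. From *Zeb1 200H* to *Zeb1 200M*, the log2 fold change was 0.11 for miR-135a-5p (SE 0.070, 95% interval −0.041 to 0.26) and −0.04 for miR-135b-5p (SE 0.11, −0.28 to 0.20). edgeR called 0 of 3 members tested (2.22% of all 675), with 0 at an unadjusted p below 0.05 (9.33% of all) and 0 by DESeq2 (1.62%). MiR-135a-5p was separate in CPM (7.85% of all), and 0 members were separate after TMM scaling (5.63% of all).

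Between breeding trial *Zeb1 200M* and WT, the log2 fold change was 0.51 for miR-135a-5p (SE 0.11, 95% interval 0.27 to 0.74), a 1.42-fold higher level, and 0.75 for miR-135b-5p (SE 0.23, 0.28 to 1.21), a 1.68-fold higher level. edgeR called both members tested, where 35.9% of all 276 miRNAs tested were called, and both were separate in CPM, as were 42.4% of all. DESeq2 called miR-135a-5p but not miR-135b-5p (22.0% of all called), and edgeR without *Zeb1 200M* replicate 3 gave miR-135b-5p a log2 fold change of 0.60 and did not call it. Of all miRNAs tested, 84.8% had a lower log2 fold change than miR-135a-5p and 91.3% a lower one than miR-135b-5p.

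Between breeding trial *Zeb1 200H* and WT, the log2 fold change was 0.09 for miR-135a-5p (SE 0.15, 95% interval −0.23 to 0.40) and 0.23 for miR-135b-5p (SE 0.27, −0.31 to 0.78). edgeR called 0 of 2 (12.0% of all 267 called), as did DESeq2 (6.97% of all), with 0 at an unadjusted p below 0.05 (27.3%). Neither was separate in CPM (29.6% of all). Without *Zeb1 200H* replicate 4, both log2 fold changes were below 0, at −0.0255 and −0.0552, and without WT replicate 3 that of miR-135a-5p was −0.00510. Without *Zeb1 200H* replicate 3 they were 0.24 and 0.39. Deviations of libraries with the same number correlated weakly in this comparison (0.198, 0.289, and 0.330), and the labels do not say that the numbers are pairs. With the number as a block the values were 0.0902 (SE 0.13) and 0.14 (SE 0.24). Matched by number alone, *Zeb1 200H* was above WT in CPM in all 3 pairs for miR-135a-5p, but with TMM scaling pair 3 was reversed (2974 against 3227). For miR-135b-5p it was above WT in pairs 1 and 4 and below it in pair 3.

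From breeding trial *Zeb1 200H* to *Zeb1 200M*, the log2 fold change was 0.44 for miR-135a-5p (SE 0.14, 0.17 to 0.71) and 0.53 for miR-135b-5p (SE 0.25, 0.035 to 1.02). edgeR called 0 of 2 (1.09% of all 274), 2 reached an unadjusted p below 0.05 (14.6% of all), and DESeq2 called 0 (0.449%). MiR-135a-5p alone was separate in CPM (18.6% of all). Single libraries moved these values. MiR-135a-5p was at 0.29 without *Zeb1 200H* replicate 3, and miR-135b-5p ran from 0.35 without *Zeb1 200M* replicate 3 to 0.83 without *Zeb1 200H* replicate 4. With the replicate number as a block, miR-135b-5p was at 1.00 (SE 0.36), not called.

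**Figure D2:**
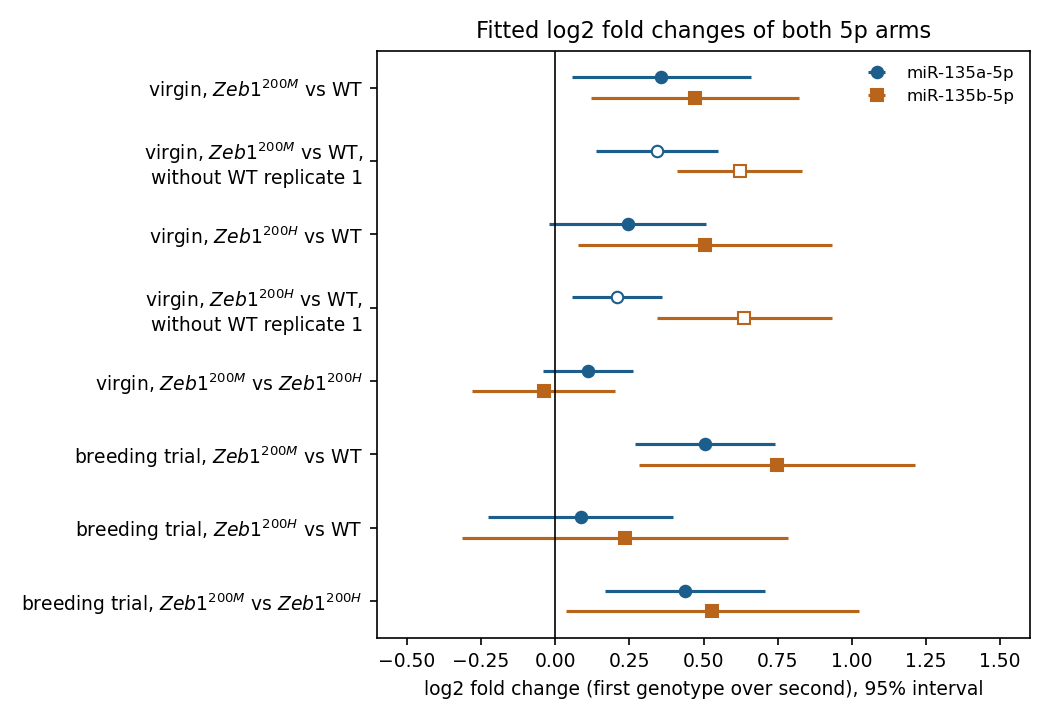
Fitted log2 fold changes (x axis) of miR-135a-5p (circles) and miR-135b-5p (squares) in each pair of genotypes, with 95% intervals. Open symbols leave out virgin WT replicate 1. Estimates range from −0.04 between the virgin mutants to 0.75 for miR-135b-5p between *Zeb1 200M* and WT of the breeding trial.

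The fits against WT share the WT libraries of their cohort. An interaction term between genotype and cohort, fitted in edgeR to miRNA names in both dictionaries, estimated the difference between the cohorts. TMM was computed over both cohorts together, so the term need not equal the gap between the separate fits. For *Zeb1 200M* against WT, the breeding trial log2 fold change exceeded the virgin one by 0.06 for miR-135a-5p (SE 0.20) and 0.19 for miR-135b-5p (SE 0.28). For *Zeb1 200H* against WT the differences were −0.15 (SE 0.23) and −0.30 (SE 0.35). Without virgin WT replicate 1 the differences were 0.13 (SE 0.17) and 0.0950 (SE 0.23) for *Zeb1 200M*, and −0.13 (SE 0.19) and −0.41 (SE 0.31) for *Zeb1 200H*. With median-of-ratios size factors and all libraries they were 0.138 (SE 0.19) and 0.270 (SE 0.28) for *Zeb1 200M*, and −0.176 (SE 0.22) and −0.315 (SE 0.35) for *Zeb1 200H*. The comparison is imprecise for both miRNAs.

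Which member makes up the family can be read within a library, where scaling plays no part. MiR-135b-5p made up 4.39% ± 0.84 (SD, n = 3) of the 5p counts in virgin WT, 5.20% ± 0.93 (SD, n = 4) in *Zeb1 200H*, and 4.73% ± 0.48 (SD, n = 4) in *Zeb1 200M*. The highest WT share, 5.35% (exact binomial 95% interval 4.92 to 5.80), was again that of replicate 1, and replicates 2 and 4 had 3.79% (3.62 to 3.97) and 4.02% (3.83 to 4.21), below all 8 mutant libraries. With replicate 1 the genotypes overlapped. Among mutants, *Zeb1 200H* replicate 3 had the highest share, 6.41% (6.21 to 6.62), and *Zeb1 200H* replicate 4 the lowest, 4.14% (3.97 to 4.32), so libraries of one genotype differed by more than counting error.

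In the breeding trial the shares were 5.31% ± 1.71 (SD, n = 4) in WT, 5.29% ± 0.85 (SD, n = 3) in *Zeb1 200H*, and 6.11% ± 1.52 (SD, n = 3) in *Zeb1 200M*, and the WT range enclosed the others. Intervals were wide at this depth. WT replicate 3, with 20 of 269 counts, had 7.43%, with an exact binomial 95% interval that reached 11.2%, and WT replicate 2, with 17 of 440, had 3.86%, with one from 2.27% to 6.11%. Together the 5p arms took 0.386% ± 0.104 (SD, n = 3) of all counted reads in virgin WT, or 0.446% (n = 2) without replicate 1. They took 0.571% ± 0.0208 (SD, n = 4) in virgin *Zeb1 200H* and 0.637% ± 0.0467 (SD, n = 4) in virgin *Zeb1 200M*. The breeding trial gave 0.376% ± 0.0494 (SD, n = 4) in WT, 0.447% ± 0.108 (SD, n = 3) in *Zeb1 200H*, and 0.634% ± 0.0595 (SD, n = 3) in *Zeb1 200M*. Unlike the share of miR-135b-5p, these percents depend on the other miRNAs of a library, as CPM does.

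**Figure D3:**
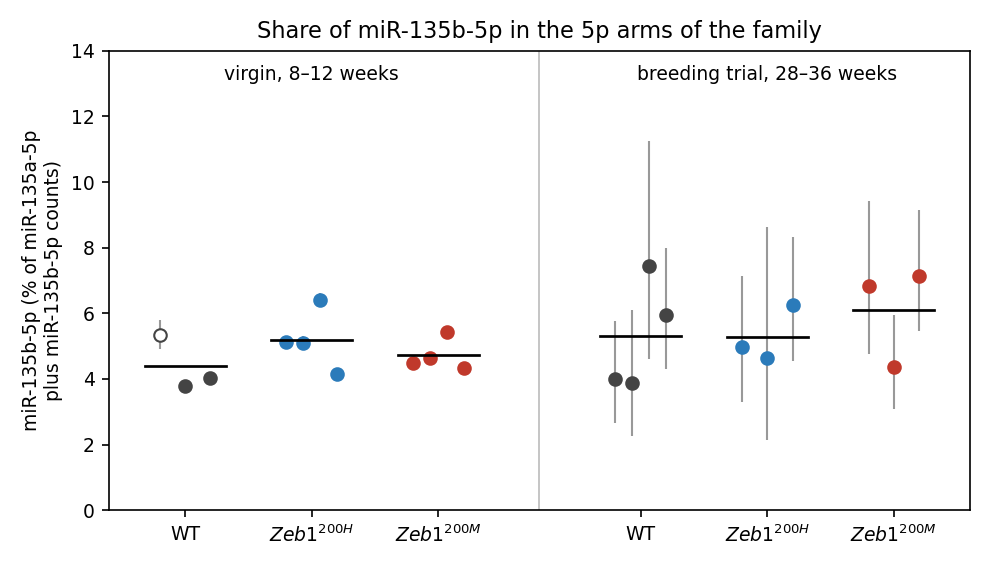
Each point is the percent of miR-135b-5p in the summed counts of both 5p arms in one library (y axis from 0), with its exact binomial 95% interval in grey and group means in black. The open circle is virgin WT replicate 1, at 5.35%. Breeding trial intervals are wide and all genotypes overlap.

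The 3p arms were rare and came from 2 of the 3 hairpins. MiR-135a-1-3p had 0 counts in all 21 libraries. Over the virgin cohort that allows at most 0.0297 CPM, or 0.00556 counts per 1000 counts of miR-135a-5p (3 counts of the summed reads). MiR-135a-2-3p had 39, 78, and 79 counts in virgin WT replicates 1, 2, and 4, from 86 to 119 in *Zeb1 200H*, and from 102 to 121 in *Zeb1 200M*. Its 1074 counts were at least 358-fold more than those of miR-135a-1-3p, taking the floor of 3 counts over the cohort. The reads of miR-135a-5p cannot be assigned to a hairpin, and how stable each 3p arm is was not measured, so its source was not resolved.

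MiR-135a-2-3p amounted to 10.2, 7.22, and 8.75 CPM in virgin WT replicates 1, 2, and 4, to 11.6, 11.4, 8.53, and 12.7 CPM in *Zeb1 200H* replicates 1 to 4, and to 10.8, 12.2, 12.0, and 11.8 CPM in *Zeb1 200M* replicates 1 to 4. The fitted log2 fold changes against WT were 0.03 for *Zeb1 200M* (SE 0.28, 95% interval −0.61 to 0.67) and 0.01 for *Zeb1 200H* (SE 0.29, −0.67 to 0.68). Without WT replicate 1 they were 0.39 (SE 0.17, 0.0088 to 0.78) and 0.34 (SE 0.20, −0.088 to 0.78), and neither was called. Per 1000 counts of miR-135a-5p, WT replicate 1 had 4.04 (exact Poisson 95% interval 2.87 to 5.53) and the other 10 virgin libraries 1.67 to 2.31. The ratio of the arms was therefore higher in that library than in any other of the cohort. The breeding trial libraries held 13 counts of miR-135a-2-3p in all, or 2.44 per 1000, with 0 to 3 in each library.

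MiR-135b-3p had 0 to 6 counts per virgin library and 20 in all, or 0.738 per 1000 counts of miR-135b-5p (exact Poisson 95% interval 0.451 to 1.14). In the breeding trial it had 1 count, in WT replicate 4. It passed no filter, so differences between genotypes were not tested.

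Among annotated miRNA hairpins on the same strand, *Mirlet7g* alone lies within 50 kb of a *Mir135* hairpin, 24626 bases from *Mir135a-1* in an intron of *Wdr82*. It encodes let-7g, of the let-7 family, which acts in cell differentiation. Let-7g-5p was at 9222 ± 2530 CPM (SD, n = 3) in virgin WT and 11483 ± 448 CPM (SD, n = 4) in virgin *Zeb1 200M*. WT replicate 1 had 6314 CPM and replicates 2 and 4 had 10914 and 10440 CPM. Its 6 fitted log2 fold changes ran from −0.21 to 0.16, and all their 95% intervals included 0. Without WT replicate 1 the virgin values against WT were −0.0556 for *Zeb1 200M* (SE 0.0660) and −0.0627 for *Zeb1 200H* (SE 0.0660). Let-7g-3p passed the filter in the virgin cohort, with log2 fold changes of 0.33 for *Zeb1 200M* against WT (SE 0.32) and −0.04 for *Zeb1 200H* (SE 0.28), or 0.37 (SE 0.34) and −0.0256 (SE 0.31) without WT replicate 1.

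*Mir1251* lies 64954 bases from *Mir135a-2*, also in an intron of *Rmst*. It falls outside the 50 kb window and was chosen after its values were seen. MiR-1251-5p was at 19.8 ± 1.65 CPM (SD, n = 3) in virgin WT, 21.2 ± 2.79 CPM (SD, n = 4) in *Zeb1 200H*, and 22.2 ± 1.95 CPM (SD, n = 4) in *Zeb1 200M*. Its log2 fold change was −0.23 for *Zeb1 200M* against WT (SE 0.19, 95% interval −0.67 to 0.21) and −0.25 for *Zeb1 200H* (SE 0.20, −0.71 to 0.21). Without WT replicate 1 these were −0.0472 (SE 0.14) and −0.0851 (SE 0.16). In the breeding trial it had 25 counts in all and did not pass the filter. *Zeb1 200M* replicates 1 to 3 had 22.8, 56.4, and 48.9 CPM (2, 7, and 6 counts), WT replicates 1 to 4 had 12.9, 8.78, 0, and 15.7 CPM, and *Zeb1 200H* replicates 1, 3, and 4 had 9.09, 0, and 22.8 CPM.

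The miRNAs whose levels followed miR-135a-5p most closely were found by Pearson's r of log2 TMM-scaled CPM, taken in each cohort and ranked by the smaller value, among 153 miRNAs with a mean of at least 50 counts in both cohorts. MiR-135b-5p fell below that minimum in the breeding trial. Values are a description, since libraries share their genotype, depth, and scaling. MiR-29b-3p, a repressor of collagen mRNAs, was first, with r of 0.737 over 11 virgin and 0.654 over 10 breeding trial libraries. MiR-33-5p, which sits in a gene of cholesterol control and represses cholesterol export, followed with 0.644 and 0.921.

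The next 3 were miR-598-3p (0.638 and 0.883), miR-126a-5p (0.602 and 0.804), which comes from the endothelial gene *Egfl7*, and miR-296-5p (0.637 and 0.587), from the imprinted *Gnas* locus. The median of the smaller r over all 153 was −0.406. WT replicate 1 weighed on the virgin values, which without it were 0.575 for miR-29b-3p, 0.386 for miR-33-5p, 0.401 for miR-598-3p, 0.260 for miR-126a-5p, and 0.363 for miR-296-5p. Without it they ranked 4th, 19th, 18th, 27th, and 21st of 153, and by CPM in place of TMM-scaled CPM 12th, 2nd, 1st, 4th, and 19th, so which miRNAs followed miR-135a-5p most closely depended on this library and on the scaling. By the same measure, miR-135b-5p had r of 0.572 with miR-135a-5p over the virgin and 0.662 over the breeding trial libraries.

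Marker lists of other cells were summed in each library, and their miRNAs were fitted in the same way. The sums are in CPM without TMM scaling. Under library totals the median log2 fold change against WT was 0.34 (*Zeb1 200M*) and 0.29 (*Zeb1 200H*) in virgin females. In the breeding trial it was 0.23 and 0.18, so a higher sum in mutants holds part of this shift. In bulk tissue, fewer cells of a type and less RNA per cell cannot be told apart. The list of neuron and brain miRNAs had 8 names in the virgin table and 7 in the breeding trial table, all with counts, and miR-153-3p was its most abundant. Its summed level was 5887, 7731, and 8189 CPM in virgin WT replicates 1, 2, and 4. *Zeb1 200H* replicates 1 to 4 had 11845, 12058, 12477, and 12983 CPM, and *Zeb1 200M* replicates 1 to 4 had 16354, 14430, 16158, and 12462 CPM. All mutant sums lay above all WT sums. Among single miRNAs, 35.1% did not overlap in CPM between virgin *Zeb1 200M* and WT, and 33.2% between virgin *Zeb1 200H* and WT.

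In the breeding trial the same sum was 10146, 9417, 8693, and 10686 CPM in WT replicates 1 to 4. It was 16045, 12659, and 15976 CPM in *Zeb1 200H* replicates 1, 3, and 4, and 20749, 20299, and 20633 CPM in *Zeb1 200M* replicates 1 to 3. In virgin pituitary, 2 of 8 were called higher in *Zeb1 200M* than in WT, miR-124-3p.1 and miR-124-3p.2, which are counted separately for this neuronal miRNA (2.65% of all 678 miRNAs tested were called higher). Without WT replicate 1, 4 of 8 were, these together with miR-9-5p and miR-9-3p (13.4% of all 703). Relative to TMM, miR-153-3p, the most abundant, had virgin log2 fold changes in *Zeb1 200M* of −0.20 (SE 0.25), or 0.22 (SE 0.088) without that library, and was called in neither. In the breeding trial, 3 of 6 tested were called higher, miR-124-3p, miR-9-5p, and miR-137-3p, where 20.3% of all 276 were. MiR-153-3p was at 0.15 (SE 0.11) there. In virgin *Zeb1 200H*, with WT replicate 1 kept, 2 of 8 were called higher than in WT, against 11 of all 672. In breeding trial *Zeb1 200H* 1 of 6 was, against 13 of all 267. MiR-153-3p in *Zeb1 200H* was at −0.17 (SE 0.25) in virgin females and 0.00763 (SE 0.14) in the breeding trial. The part of these markers in the miR-135 levels was not tested.

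The endocrine list went the other way. It summed to 421254, 302567, and 305960 CPM in virgin WT replicates 1, 2, and 4, from 260761 to 286648 CPM in *Zeb1 200H*, and from 235518 to 283788 CPM in *Zeb1 200M*. Breeding trial sums were 323424 to 352705 CPM in WT, 272182 to 297774 CPM in *Zeb1 200H*, and 250208 to 264458 CPM in *Zeb1 200M*. MiR-7a-5p was the most abundant. Of its 5 members, 2 were called lower in virgin *Zeb1 200M*, miR-141-3p and miR-200c-3p, which belong to the miR-200 superfamily (3.83% of all were called lower). Without WT replicate 1, 3 were, these together with miR-375-3p (10.5% of all). In breeding trial *Zeb1 200M* 4 were, those together with miR-7a-5p and miR-375-3p (15.6% of all). The paper cites reports that ZEB1 directly targets the miR-200 loci. MiR-141-3p and miR-200c-3p are therefore not read as markers of cell number in the mutants.

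The glial list, led by miR-338-3p, summed to 459 to 611 CPM in virgin WT and 738 to 838 CPM in virgin *Zeb1 200M*, and to 821 to 1184 and 1514 to 1734 CPM in the breeding trial. In *Zeb1 200H* it summed to 753 to 811 CPM in virgin females and 1283 to 1835 CPM in the breeding trial. Relative to TMM, the virgin log2 fold changes between *Zeb1 200M* and WT were 0.38 for miR-338-3p (SE 0.13) and −0.76 for miR-219a-5p (SE 0.29), neither called, and without WT replicate 1 they were 0.36 (SE 0.090, called) and −0.28 (SE 0.13, not called). Breeding trial values were 0.45 (SE 0.15, called) and 0.28 (SE 0.25, not called). Of all miRNAs tested, 2.65% were called higher in virgin *Zeb1 200M*, 13.4% without WT replicate 1, and 20.3% in breeding trial *Zeb1 200M*.

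The vascular list summed to 1867 to 2395 CPM in virgin WT and 2020 to 4412 CPM in virgin *Zeb1 200M*, and to 7719 to 8193 and 10944 to 12331 CPM in the breeding trial. These virgin sums leave out endothelial miR-126a-3p, which the virgin dictionary splits into miR-126a-3p.1 and miR-126a-3p.2. With both added they were 6454 to 7444 CPM in WT and 7373 to 10254 CPM in *Zeb1 200M*, which overlapped, and their own log2 fold changes were −0.22 (SE 0.25) and −0.23 (SE 0.25), or 0.21 for each (SE 0.090 and 0.096) without WT replicate 1, called in neither fit. MiR-145a-5p was called higher in virgin *Zeb1 200M*, at 0.57 (SE 0.13), or 0.52 (SE 0.095) without that library, and miR-143-3p was not, at 0.0994 (SE 1.00) and 0.39 (SE 0.998). Of all miRNAs tested, 2.65% were called higher with that library and 13.4% without it. In breeding trial *Zeb1 200M* all 3 vascular miRNAs tested were called higher (20.3% of all), miR-126a-3p at 0.28 (SE 0.0995), miR-143-3p at 0.39 (SE 0.12), and miR-145a-5p at 0.33 (SE 0.11). Vascular sums in *Zeb1 200H* were 7117 to 9206 CPM in virgin females, with both names added, and 10077 to 10942 CPM in the breeding trial.

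The blood list, led by miR-451a, overlapped between virgin WT (4931 to 8959 CPM) and virgin *Zeb1 200M* (8751 to 10401 CPM), as well as in the breeding trial (5744 to 8285 and 7141 to 10781 CPM). Blood sums in *Zeb1 200H* were 7821 to 17924 CPM in virgin females and 6700 to 8661 CPM in the breeding trial. MiR-451a had log2 fold changes between *Zeb1 200M* and WT of 0.23 (SE 0.20) in virgin females, 0.0568 (SE 0.12) without WT replicate 1, and 0.14 (SE 0.12) in the breeding trial, called in none. The other member of the list, miR-144-3p, was at −0.77 (SE 0.38) in virgin *Zeb1 200M*, or −0.0171 (SE 0.12) without WT replicate 1. It was called higher in the breeding trial, at 0.57 (SE 0.18), where 20.3% of all were. Muscle miRNAs, with miR-133a-3p.1 added, were scarce in the virgin cohort, at 6.42 to 14.1 CPM in WT and up to 73.9 CPM in *Zeb1 200M*, with *Zeb1 200M* replicate 3 inside the WT range. Against WT, *Zeb1 200M* log2 fold changes were 1.92 for miR-1a-3p (SE 0.59), 3.11 for miR-206-3p (SE 0.79), and 1.56 for miR-133a-3p.1 (SE 0.57), none called. Without WT replicate 1 they were 2.00 (SE 0.58), 3.55 (SE 0.91), and 1.78 (SE 0.55), all called (13.4% of all were called higher). The row miR-133a-3p.2/b-3p, whose name also covers miR-133b, was left out of these sums. It had a log2 fold change of 1.76 (SE 0.71), not called, and is given only with WT replicate 1 kept. Virgin *Zeb1 200H* sums were 14.6 to 47.2 CPM. Breeding trial muscle sums, with no name added, were 6.47, 26.3, 0, and 31.3 CPM in WT replicates 1 to 4. They were 9.09, 16.7, and 30.5 CPM in *Zeb1 200H* replicates 1, 3, and 4, and 11.4, 0, and 0 CPM in *Zeb1 200M* replicates 1 to 3. The part of these lists in the miR-135 levels was likewise not tested.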

How the data were processed

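Per the labels and methods, the authors trimmed adapters with cutadapt, filtered reads by base quality, and assigned a read by its first 19 nt (virgin) or 18 nt (breeding trial) to a miRNA dictionary. The values used are deposited counts per miRNA, unscaled, in 6 tables. Columns repeated between tables were identical for all 21 libraries. Another 42 scaled columns, and the authors' fold changes and p values (DESeq2 1.38.3 in the submitters' notes on the virgin libraries), were not used.

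Members are all rows named miR-135a or miR-135b, of any arm, after removal of the species prefix. Members, lists, and alternatives were chosen with earlier results of these data known. Pairs of genotypes were compared within a cohort by the quasi-likelihood test of edgeR 4.0.16 under R 4.3.3, tested on simulated data (TMM, minimum count 10, minimum total count 15). SE was derived from the F statistic. Alternatives were DESeq2 1.42.0, median-of-ratios size factors, library totals, no filter, a fit of all 3 genotypes together, the replicate number as a block, and leaving out each library; those for miR-135a-2-3p, let-7g, miR-1251-5p, and the marker lists, and the marker names miR-126a-3p.1, miR-126a-3p.2, and miR-133a-3p.1, were added after seeing the data. A prior count of 2 was used for correlations. Deviations from the group means correlated between same-numbered libraries of breeding trial WT and *Zeb1 200H* at 0.198, 0.289, and 0.330, the only comparison in which every such pair exceeded 0.1, so there the numbers were taken as pairs. Between the virgin mutants these correlations were 0.250, 0.196, 0.355, and −0.0561, and no pairs were read there. The labels give no reason for the pairing, and whether same-numbered mice were matched is not known. Exact intervals cover counting error only.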

Additional observations from a re-analysis of the deposited data

Results flagged for a closer look

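The library farthest from the rest was sought by the gap to its neighbour in the 3 groups of 4 libraries, for the CPM of each member with a count and the share of miR-135b-5p, 15 combinations in all. One value stood apart, miR-135b-3p in breeding trial WT, where replicate 4 had 5.22 CPM and the other 3 libraries had 0. It rests on 1 count. Groups of 3 libraries, virgin WT among them, are too small for this search.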

How the results depend on the processing

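The 5p arms kept their direction under every alternative in both comparisons of *Zeb1 200M* with WT, in virgin *Zeb1 200H* against WT, and in breeding trial *Zeb1 200M* against *Zeb1 200H*. Values below are log2 fold changes unless they are counts of miRNAs called, and the cause was not tested. Breeding trial *Zeb1 200M* against WT: miR-135b-5p was not called by DESeq2 (0.72) or without *Zeb1 200M* replicate 3 (leaving out single libraries gave 0.60 to 0.91). Virgin *Zeb1 200M* against WT: miR-135a-5p was called in the fit of 3 genotypes (0.36) and without WT replicate 1 (0.34; range 0.29 to 0.40), and miR-135b-5p by DESeq2 (0.47), with library totals (0.87), and without WT replicate 1 (0.62; lowest 0.39). Virgin *Zeb1 200H* against WT: miR-135a-5p was called without WT replicate 1 (0.21; highest 0.27), and miR-135b-5p with library totals (0.85) and without WT replicate 1 (0.64; lowest 0.40). Direction turned for breeding trial *Zeb1 200H* against WT (miR-135a-5p −0.0255 to 0.24 and miR-135b-5p −0.0552 to 0.39 as libraries were left out; miR-135a-5p −0.00510 without WT replicate 3) and for miR-135b-5p between the virgin mutants (0.0188 with library totals; −0.12 to 0.0723 as libraries were left out, the highest without *Zeb1 200H* replicate 3, and 0.00936 without *Zeb1 200M* replicate 2). MiR-135a-2-3p had no steady direction: −0.00132 by DESeq2, −0.0297 with median-of-ratios size factors, and −0.22 to 0.34 for virgin *Zeb1 200H* against WT (−0.11 without WT replicate 4; −0.0389, −0.0112, and −0.0905 without *Zeb1 200H* replicates 1, 2, and 4), −0.00205 with those size factors and −0.19 to 0.39 for *Zeb1 200M* against WT (−0.0752 without WT replicate 4), and −0.0646 to 0.10 between the mutants. Counts moved by over 1.5 times for virgin *Zeb1 200M* against WT (44) to 86 by DESeq2, 90 in the fit of 3 genotypes, and 25 to 168 without single libraries, for virgin *Zeb1 200H* against WT (34) to 66, 67, and 21 to 151, between the virgin mutants (15) to 5 in the fit of 3 genotypes, for breeding trial *Zeb1 200H* against WT (32) to 68 with library totals, and between the breeding trial mutants (3) to a range of 3 to 5. TMM-scaled CPM differed from CPM by over 1 SD for miR-135b-5p in virgin WT (198) and *Zeb1 200M* (275) and miR-135a-5p in virgin *Zeb1 200H* (5126) and *Zeb1 200M* (5573).

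With the replicate number as a block, counts were 20 and 18 for virgin *Zeb1 200M* and *Zeb1 200H* against WT, 14 between the virgin mutants, 87 and 47 for breeding trial *Zeb1 200M* and *Zeb1 200H* against WT, and 5 between the breeding trial mutants. The block changed no call of a member, and moved the log2 fold change of miR-135b-5p between the breeding trial mutants to 1.00. Depth limits the breeding trial cohort, where miR-135b-5p rests on 9 to 57 counts and 3p arms on 0 to 3.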
